A study of Homo sapiens with 6 samples.

Results

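The genes described here are 10 of 58219 in the tables: the 7 genes of diphthamide synthesis, EEF2, EEF2K and DPH5-DT, a non-coding RNA transcribed away from the DPH5 promoter. They were chosen from the measured contrast itself, since DPH5 and DPH5-DT were known to be among the genes with the lowest E4F1 shRNA levels relative to control. The comparison between groups is therefore given for these 10 genes as a description. U2OS cells, a human osteosarcoma line, were infected with a scramble control shRNA or with an shRNA against E4F1, a zinc finger transcription factor, in 3 pools each. Infection took 24 h, puromycin selection a further 48 h, and polyadenylated RNA was sequenced from cells collected at 72 h. The control cells thus share the infection and the selection. The labels give no hairpin sequence and no second hairpin, so effects on other targets cannot be told apart from loss of E4F1. In a bulk sample, fewer cells of a type and less RNA per cell cannot be told apart.

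Diphthamide is a modified histidine found in a single cellular protein, the translation elongation factor EEF2, which moves the ribosome along the mRNA. It is built in steps. The DPH1 and DPH2 subunits, with the help of DPH3 and DNAJC24, attach an aminocarboxypropyl group from S-adenosylmethionine to the histidine, DPH5 methylates the product, DPH7 removes a methyl ester, and DPH6 adds the final amide. Diphtheria toxin and Pseudomonas exotoxin A inactivate EEF2 by ADP-ribosylating the finished diphthamide. EEF2 is also switched off by phosphorylation, through the calmodulin-dependent kinase EEF2K.

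Reads in genes numbered 14947085 to 16892139 per library. E4F1 itself had 233, 286 and 297 reads in controls 1 to 3 and 51, 53 and 41 after knockdown, a mean level 5.93-fold lower. The 12 mesenchymal and bone markers summed to 6160 to 6350 CPM (read counts scaled to a common library size) in the controls and to 5600 to 5780 CPM after knockdown. Of the 10 tested, 4 fell (COL1A1, COL5A1, VIM and SPP1), where 14.4% of all genes tested were called lower. SP7 and BGLAP, markers of mature osteoblasts, were near 0 in all libraries. COL1A2 was also low, at a mean of 0.772 CPM in the controls and 0.677 CPM after knockdown, where COL1A1 had 1209 and 1085 CPM. The part of the difference in mesenchymal markers between the groups in the results on other genes was not tested. The 6 epithelial markers summed to 14.4 to 15.9 and 14.7 to 16.7 CPM, and of the 3 tested EPCAM rose by 0.43 on the log2 scale (edgeR adjusted p = 0.0229) and CDH1 fell by 0.41 (0.0442). The 7 blood markers summed to 2.21 to 2.57 and 1.49 to 3.11 CPM, and the 5 endothelial markers to 1.61 to 2.78 and 1.83 to 2.26 CPM. CD3E had no read. On the first principal component, control 2 lay at −9.85, nearer to the E4F1 shRNA libraries (17.5 to 22.7) than controls 1 and 3 (−20.9 and −31.1). No call on the 10 genes differed without control 2.

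DPH5 and DPH5-DT are transcribed in opposite directions from 1 stretch of chromosome 1. In RefSeq (GRCh38.p14), the start of DPH5 is at 101025784 on the minus strand and that of DPH5-DT at 101025846 on the plus strand. The 250 bases before the DPH5 start are shown because both genes of this pair had lower levels after E4F1 depletion. They are written 5′ to 3′ on the DPH5 strand, and the capitals mark the 61 bases that lie between the 2 RefSeq starts. GENCODE starts DPH5 further upstream, at 101026088, so in that annotation the 250 bases shown lie within the gene.
DPH5 upstream, chr1:101025785-101026034, minus strand: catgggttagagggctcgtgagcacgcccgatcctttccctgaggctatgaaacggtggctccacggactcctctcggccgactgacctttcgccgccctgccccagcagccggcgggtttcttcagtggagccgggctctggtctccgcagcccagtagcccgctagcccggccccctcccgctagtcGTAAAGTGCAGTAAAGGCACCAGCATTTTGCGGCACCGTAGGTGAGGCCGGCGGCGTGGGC

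The letters of the E4F1 site known from the adenovirus E4 promoter and cellular genes were searched on both strands of RefSeq promoter windows, from 250 bases before to 50 after each start. A window was found for 9 of the 10 genes. That of DPH5 is placed by the RefSeq start and reaches 101026034, short of the GENCODE start at 101026088. The bases before the GENCODE start of DPH5 were thus not searched. The core TGACGT was in none of the windows of DPH1, DPH2, DPH3, DPH5, DPH5-DT, DPH6, DPH7 or EEF2K, and in that of EEF2. It was present in 7.98% of all 35116 windows. In EEF2 it formed the palindrome TGACGTCA, which 1.85% of all windows hold and which contains the core on both strands. It began 13 bases before the EEF2 start. TGACGTAA (0.416% of windows), TGACGTAAC (0.103%) and TGACGTCAC (1.26%) were in none of the 9 genes' windows. The 100 bases before the EEF2 start are shown for this match, with TGACGTCA in capitals.
EEF2 upstream, chr19:3985464-3985563, minus strand: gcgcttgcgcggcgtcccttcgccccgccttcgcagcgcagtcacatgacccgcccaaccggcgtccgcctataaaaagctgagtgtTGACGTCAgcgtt

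A match is a description of letters and was not tested as a binding site. The DPH5 window had 64.7% G and C and 26 CpG dinucleotides, against medians of 58.7% and 14 over all windows. CpG counts in the windows of the 9 genes ranged from 17 in DPH5-DT to 41 in EEF2.

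Transcript levels were first compared with each other in control cells, as CPM per kilobase of annotated exon. EEF2, the substrate, stood far above the rest at 453 ± 23.5 (SD, n = 3). DPH2 followed with 26.9 ± 1.04, DPH3 with 14.5 ± 0.416 and DPH5 with 13.2 ± 0.590 CPM per kilobase. The remaining enzyme genes were lower, with DPH7 at 4.69 ± 0.443, DNAJC24 at 3.16 ± 0.198, DPH1 at 2.76 ± 0.0935 and DPH6 at 0.703 ± 0.0786 CPM per kilobase. EEF2K had 1.33 ± 0.138 and DPH5-DT 1.004 ± 0.0979 CPM per kilobase. No 2 neighbours in this order overlapped between control libraries. Exon lengths are the union of all annotated isoforms, which lowers the value of genes with many alternative exons such as DPH6 (9.35 kb). For DPH1, reads in the part of the gene that OVCA2 shares on the same strand were in no gene: OVCA2 lies inside DPH1 (chromosome 17, 2041936 to 2043430) and is listed at 0 in all libraries.

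In E4F1 shRNA cells, levels of 6 of the 10 genes were past the threshold of the edgeR fit over all genes, 2 of them higher and 4 lower. Of all 15765 genes tested 28.9% passed, 14.4% higher and 14.4% lower. All E4F1 shRNA libraries lay above or below all control libraries for 8 of the 10 genes, 3 above and 5 below, against 41.8% of all genes. Because this contrast chose the genes, nothing is read from these counts. All 10 genes passed the low-count filter, and their median log2 fold change was −0.082, against −0.0096 over all genes tested.

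**Figure D1:**
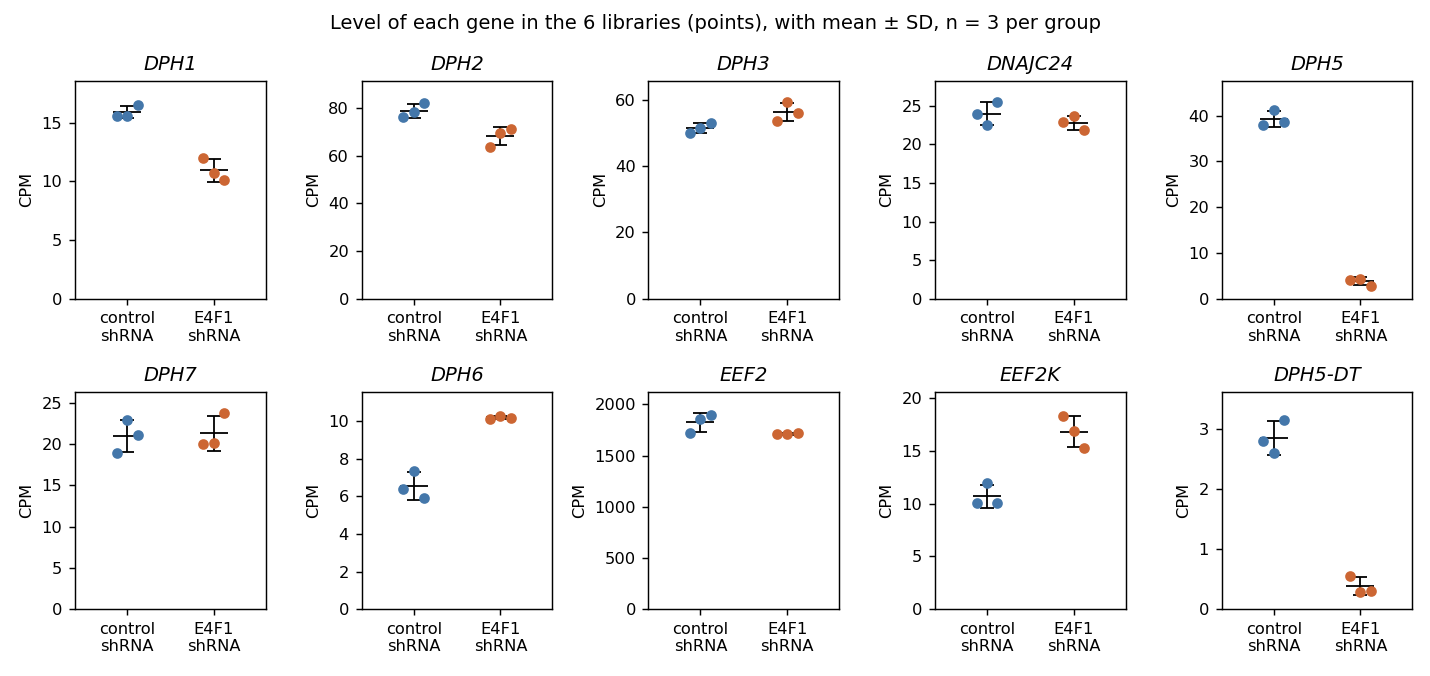
CPM of the 10 genes (vertical axes, each from 0) in the 3 control shRNA libraries (blue) and the 3 E4F1 shRNA libraries (orange), each point 1 library, with mean ± SD. DPH5 and DPH5-DT are near the bottom of their axes in all 3 E4F1 shRNA libraries, DPH6 and EEF2K are above all controls, and DPH7 and DNAJC24 overlap.

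In the first step of diphthamide synthesis, the counted reads of both transferase subunits were lower. DPH1 (chromosome 17, 2030110 to 2043430, plus strand) was at 15.6, 15.6 and 16.5 CPM in controls 1 to 3 and at 11.98, 10.7 and 10.1 CPM in E4F1 shRNA libraries 1 to 3. The groups did not overlap, and the highest E4F1 shRNA library was well below the lowest control. The mean went from 15.9 ± 0.537 to 10.9 ± 0.973 CPM (SD, n = 3 each), which is −0.54 on the log2 scale (SE 0.10). These values leave out the stretch shared with OVCA2. There, opposite the antisense gene ENSG00000262533, plus-strand reads numbered 327, 347 and 340 in the controls and 343, 352 and 317 after knockdown. They outnumber the counted DPH1 reads (233, 252 and 257, then 192, 180 and 165) and show no such fall. Whether they come from DPH1 or OVCA2 was not tested.

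DPH2, the partner of DPH1 in the iron-sulfur transferase (chromosome 1, 43970000 to 43973369, plus strand), had 76.1, 78.3 and 82.2 CPM in the controls and 63.8, 69.5 and 71.3 CPM after knockdown. The groups did not overlap, but the difference was small, with a log2 fold change of −0.21 (SE 0.061). DPH2 was past the threshold with all libraries and not without control 3 (edgeR adjusted p = 0.0621), E4F1 shRNA library 1 (0.127) or E4F1 shRNA library 2 (0.0538).

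DPH3, which passes electrons to the transferase and is also linked to the Elongator complex of tRNA modification, did not pass the threshold (chromosome 3, 16257978 to 16264972, minus strand). It had 50.2, 51.5 and 53.2 CPM in the controls and 53.8, 59.3 and 56.0 CPM in the E4F1 shRNA libraries, a log2 fold change of 0.13 (SE 0.063). All 3 E4F1 shRNA libraries were above all controls, by a margin smaller than the spread within either group. A processed copy of DPH3 exists in the genome, and reads that map to both would not be counted, so its level is uncertain to that extent.

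DNAJC24, a J-domain protein also called DPH4 that assists the same step (chromosome 11, 31369840 to 31431849, plus strand), overlapped between groups. It had 24.0, 22.5 and 25.5 CPM in the controls and 22.8, 23.7 and 21.9 CPM after knockdown (log2 fold change −0.07, SE 0.081). The 4 genes of the first step thus had log2 fold changes from −0.54 to 0.13, with the transferase subunits as the only ones past the threshold.

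The methyltransferase gene DPH5 had by far the lowest level relative to control of the 7 synthesis genes. DPH5 (chromosome 1, 100989623 to 101026088, minus strand in GENCODE) had 568, 668 and 601 reads in controls 1 to 3 against 67, 74 and 47 after knockdown. In CPM these were 38.0, 41.3 and 38.6 against 4.18, 4.40 and 2.87. The lowest control was far above the highest E4F1 shRNA library, and the groups did not come close to overlap.

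On average DPH5 was at 9.71% of its control level, 90.3% lower, with a log2 fold change of −3.36 (SE 0.12). By fold change it had rank 2 from the lowest among all genes tested. Leaving out any 1 library, or changing the scaling, the filter, the test or the strand setting, gave log2 fold changes between −3.48 and −3.19. The few reads on the opposite strand of DPH5 numbered 8 to 12 in the controls and 1 to 3 in the E4F1 shRNA libraries.

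As a share of the summed CPM per kilobase of the 7 synthesis genes, DPH5 made up 20.1%, 20.9% and 19.3% in the controls. In the E4F1 shRNA libraries it made up 2.88%, 2.83% and 1.86%. The other 6 genes together had 50.9, 52.7 and 54.5 CPM per kilobase in the controls and 47.5, 50.95 and 51.1 in the E4F1 shRNA libraries, so their sums overlapped between groups. By mean level DPH5 went from rank 4 to rank 8 of the 10 genes. After knockdown the libraries of DPH5 overlapped those of DPH6, the lowest enzyme gene (1.29 ± 0.279 and 1.09 ± 0.0095 CPM per kilobase).

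DPH5-DT, the non-coding partner (chromosome 1, 101025878 to 101087268, plus strand), was lower as well. It had 42, 42 and 49 reads in the controls and 9, 5 and 5 after knockdown, or 2.81, 2.60 and 3.15 against 0.562, 0.297 and 0.305 CPM. Every E4F1 shRNA library lay far below the lowest control. The log2 fold change was −2.86 (SE 0.30), rank 4 from the lowest, and its SE is larger, with 5 to 9 reads per knockdown library.

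The ratio of DPH5 to DPH5-DT, in CPM, was 13.5, 15.9 and 12.3 in the controls and 7.44, 14.8 and 9.40 in the E4F1 shRNA libraries. The groups overlapped, so at this depth no difference between the losses of the 2 transcripts was detectable. GENCODE places the starts 210 bases apart with 211 bases in common, on opposite strands. The counts used the strand of each read, which separates the 2 transcripts except for reads given the wrong strand. How many such reads fell in the shared bases was not tested. Over the whole of DPH5, reads on the opposite strand numbered 8 to 12 in the controls and 1 to 3 after knockdown. DPH5-DT had 42 to 49 and 5 to 9 reads.

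The enzymes that act after DPH5 did not have lower levels. DPH7, which removes the methyl ester (chromosome 9, 137554904 to 137578935, minus strand), had 18.9, 22.9 and 21.1 CPM in the controls and 20.0, 20.1 and 23.7 CPM after knockdown. The groups overlapped, with a log2 fold change of 0.02 (SE 0.095).

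DPH6, the amidating enzyme of the last step (chromosome 15, 35217345 to 35546193, minus strand), had higher levels. It was at 6.42, 7.36 and 5.91 CPM in the controls and at 10.1, 10.3 and 10.2 CPM in the E4F1 shRNA libraries. All E4F1 shRNA libraries were above all controls and close to each other. DPH6 went from 6.57 ± 0.735 to 10.2 ± 0.0917 CPM (SD, n = 3 each), 55.3% higher, with a log2 fold change of 0.63 (SE 0.12).

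**Figure D2:**
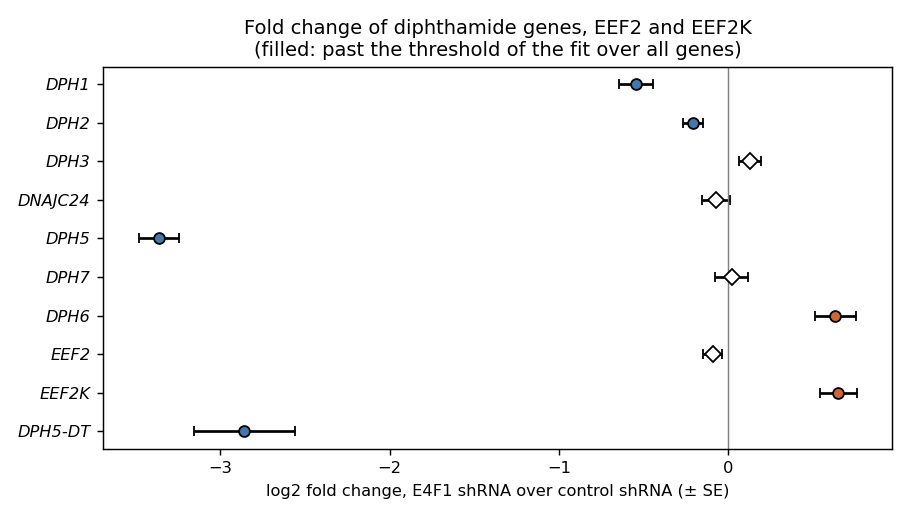
Log2 fold change of each gene, E4F1 shRNA over control shRNA (horizontal axis), with the SE of the fit as bars. Filled circles passed the threshold of the fit over all genes: DPH5 (−3.36) and DPH5-DT (−2.86) lie far left of DPH1 and DPH2, DPH6 (0.63) and EEF2K (0.65) lie to the right, and the 4 open diamonds are near 0.

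The substrate EEF2 did not pass the threshold. EEF2 (chromosome 19, 3976056 to 3985469, minus strand) was at 1718, 1861 and 1897 CPM in the controls and at 1710, 1707 and 1717 CPM in the E4F1 shRNA libraries. Control 1 was barely above the highest E4F1 shRNA library, although the groups did not overlap. The log2 fold change was −0.09 (SE 0.054). Written as a percentage of the scaled library size, these CPM are 0.172% to 0.190% in the controls and 0.171% to 0.172% in the E4F1 shRNA libraries. They are not shares of unscaled reads. Unscaled, EEF2 had 25676 of 14947085 reads in genes in control 1. In E4F1 shRNA library 3 it had 28130 of 16159934, a larger share.

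The EEF2 kinase gene had higher levels. EEF2K (chromosome 16, 22206282 to 22288732, plus strand) had 10.0, 11.9 and 10.0 CPM in the controls and 18.2, 16.8 and 15.3 CPM in the E4F1 shRNA libraries. Every E4F1 shRNA library was above every control. EEF2K went from 10.7 ± 1.101 to 16.8 ± 1.48 CPM (SD, n = 3 each), 57.2% higher, with a log2 fold change of 0.65 (SE 0.11). These are mRNA levels only: neither the diphthamide on EEF2 nor its phosphorylation was measured.

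Genes near DPH5 were examined to see whether the lower level extended along the chromosome. Apart from DPH5-DT, 18 annotated genes in the tables lie within 500000 bases of DPH5. Of these 5 passed the low-count filter and 1 was called, where 28.9% of all genes tested were called. The zinc transporter gene SLC30A7, whose end is 7870 bases from that of DPH5, had 47.9, 47.9 and 52.4 CPM in the controls and 43.2, 42.8 and 48.9 CPM after knockdown. Its groups overlapped (log2 fold change −0.13, SE 0.071, edgeR adjusted p = 0.167).

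EXTL2, a glycosyltransferase gene, had 54.3, 50.9 and 51.7 CPM in the controls and 57.4, 57.5 and 54.2 CPM after knockdown (log2 0.11, edgeR adjusted p = 0.208). The phosphatase gene CDC14A also did not pass (log2 0.13, edgeR adjusted p = 0.306). S1PR1, the receptor for sphingosine 1-phosphate on the other side of DPH5-DT, had 33, 17 and 31 reads in the controls and 51, 38 and 47 after knockdown. Its log2 fold change of 0.67 did not pass (edgeR adjusted p = 0.0565) and passed in some other settings, without control 1 for example (0.0450).

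The 1 call was ENSG00000273204, an antisense RNA at the EXTL2 promoter with 16, 19 and 21 reads in the controls and 10, 11 and 9 after knockdown (log2 −0.97, SE 0.31, edgeR adjusted p = 0.0242). That call was lost without control 3 (0.0987) and without each E4F1 shRNA library in turn (0.0646 to 0.0778). The protein-coding neighbours that were tested thus lay within 0.67 of 0 on the log2 scale, where DPH5 and DPH5-DT were at −3.36 and −2.86.

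**Figure D3:**
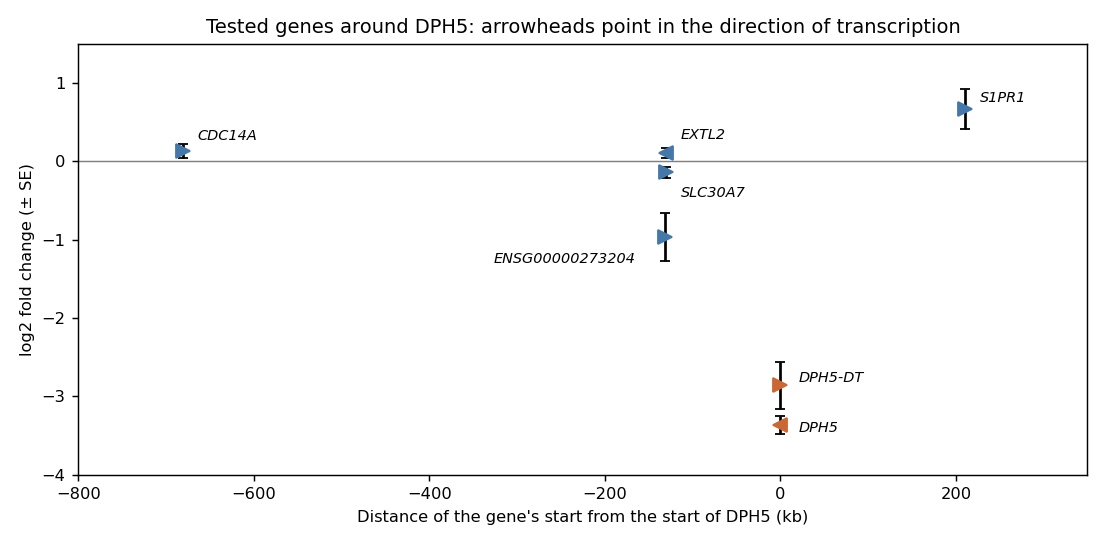
Log2 fold change, with the SE as bars (vertical axis), of DPH5, DPH5-DT (both orange) and the 5 other tested genes within 500000 bases (blue), by the distance of each start from the start of DPH5 in kilobases. Only the orange pair at distance 0 lies below −2, and the neighbours lie between −0.97 and 0.67.

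Of the other 8 genes, 3 have a partner whose GENCODE start lies within 1000 bases on the opposite strand. OXNAD1, an oxidoreductase domain gene that starts 188 bases from DPH3, had 14.5, 15.9 and 14.7 CPM in the controls and 19.0, 18.0 and 18.3 CPM after knockdown. All E4F1 shRNA libraries were above all controls, and OXNAD1 rose by 0.29 on the log2 scale (SE 0.089, edgeR adjusted p = 0.0192), a call that was lost without control 1 (0.0591), control 3 (0.0580) or E4F1 shRNA library 1 (0.0650). DCDC1, which starts 30 bases from DNAJC24, had 19 to 35 reads per library (log2 0.0065, SE 0.26, edgeR adjusted p = 0.988). DPH6-DT, which starts 2 bases from DPH6, had at most 2 reads in any library and was not tested.

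By Euclidean distance between log2 CPM profiles over the 6 libraries, each profile less its control mean, the profile of DPH5 was ranked against 10482 genes with an average log2 CPM of at least 3. Ranks 2 to 5 by nearness were E4F1 (distance 1.46), KIFBP, a kinesin-binding protein gene (1.47), DGCR6L (2.59) and DLAT, a subunit gene of pyruvate dehydrogenase (2.88). These 4 had shallower falls than DPH5, from a log2 fold change of −2.57 in E4F1 to −1.70 in DLAT. A distance of this kind mainly follows the size of the fall in the contrast that chose DPH5. Shared regulation was not tested.

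Genes that work beside diphthamide synthesis and EEF2 were followed through 7 lists. The other elongation factors and the hypusine enzymes of EIF5A, 10 genes, had 9 tested, of which 4 fell and none rose, with a median log2 fold change of −0.20. Over all genes 14.4% were called lower and 14.4% higher, with a median of −0.0096. EEF1A2, a tissue-restricted form of the factor that brings aminoacyl-tRNA to the ribosome, fell from 427 ± 33.7 to 269 ± 13.4 CPM (SD, n = 3 each), or by 0.67 on the log2 scale (SE 0.061, edgeR adjusted p = 6.02e-07). EEF1B2, a nucleotide exchange factor subunit, fell by 0.28 (edgeR adjusted p = 0.0012).

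EIF5A2 fell by 0.27 (edgeR adjusted p = 0.0128) and EEF1D by 0.15 (0.0342). The EIF5A2 call was lost without control 1 or E4F1 shRNA library 1 or 3, and the EEF1D call without control 2 or 3 or any E4F1 shRNA library. The main form EEF1A1 had 1096 ± 27.7 and 1034 ± 46.2 CPM and overlapping groups (log2 −0.08, edgeR adjusted p = 0.258). EEF1G is listed at 0 in all libraries. A read-through gene, ENSG00000255508, covers nearly all of it on the same strand in GENCODE, and reads in exons of both are counted for neither.

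The 5 EEF2-like GTPase genes, which resemble EEF2 but act in ribosome maturation, splicing or mitochondria, held no call. Of all genes tested 28.9% were called. EFL1 was at 68.5 ± 2.26 and 69.9 ± 4.28 CPM (log2 0.03, SE 0.062, edgeR adjusted p = 0.770) and EFTUD2 had a log2 fold change of −0.04 (SE 0.053, 0.640). The mitochondrial GFM1 and GFM2 came nearest to the threshold (edgeR adjusted p = 0.0556 and 0.0766), and DESeq2 called none. There was 1 call, lower, without control 2, without E4F1 shRNA library 1, with the replicate number as a block and with a stricter low-count filter.

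Of 19 regulators of EEF2K, 5 rose and 1 fell, with a median log2 fold change of 0.023. Over all genes 14.4% were called higher and 14.4% lower, and the list was not tested as a set. RPS6KB1, the S6 kinase that inhibits EEF2K, rose from 74.6 ± 2.71 to 108 ± 1.83 CPM (log2 0.53, SE 0.055, edgeR adjusted p = 2.41e-06). CALM2, which encodes calmodulin, rose from 673 ± 36.2 to 925 ± 48.6 CPM (log2 0.46, edgeR adjusted p = 1.77e-05).

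PRKAA1, a catalytic subunit of AMP-activated kinase, which activates EEF2K, rose by 0.26 (edgeR adjusted p = 0.00128), as did PRKAA2 (0.26, adjusted p = 0.0453). BTRC, of the ubiquitin ligase that degrades EEF2K, fell by 0.21 (edgeR adjusted p = 0.0269). The named genes hold activators and inhibitors of EEF2K alike. The PRKAA2 call was lost in 6 of 14 other settings, among them without control 2 or 3 or E4F1 shRNA library 1 or 3. The BTRC call was lost in 7 of 14, among them without any 1 library other than control 2.

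Of 9 genes of the S-adenosylmethionine cycle, which supplies both the transferase and DPH5, 8 were tested. Over all genes 14.4% were called higher and 14.4% lower. MTRR, which reactivates methionine synthase, rose by 0.22 (edgeR adjusted p = 0.0128), a call that was lost without control 1 or E4F1 shRNA library 2. No other passed: MAT2A, the synthetase gene, had 293 ± 13.9 and 288 ± 15.9 CPM (log2 −0.03) and AHCY a log2 fold change of −0.06 (SE 0.049).

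Iron-sulfur clusters are needed by the DPH1 and DPH2 transferase. Of 16 assembly genes, 15 were tested, 1 rose and 3 fell, where 14.4% of all genes were called higher and 14.4% lower. CIAO3, a cytosolic targeting factor, rose from 15.7 ± 1.92 to 26.4 ± 1.72 CPM (log2 0.75, SE 0.095, edgeR adjusted p = 2.15e-05). CIAO2B, of the same targeting machinery, fell by 0.36 (adjusted p = 0.00163 by edgeR).

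ISCU, the scaffold, fell by 0.24 (edgeR adjusted p = 0.0171) and CIAO1 by 0.16 (0.0242). The call of ISCU was lost without control 3 or E4F1 shRNA library 2 or 3, and that of CIAO1 without any 1 library other than control 2.

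Among 7 genes of Elongator and its partner KTI12, ELP3, the catalytic subunit, fell from 94.7 ± 2.195 to 59.7 ± 4.21 CPM (log2 −0.67, edgeR adjusted p = 7.64e-07). ELP4 rose by 0.28 (edgeR adjusted p = 0.0156), a call lost without E4F1 shRNA library 1 or 2 and in counts that ignored strand (adjusted p = 0.869). No other gene of this list passed, where 14.4% of all genes were called higher and 14.4% lower.

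Of 8 genes of toxin uptake and processing, LRP1, the receptor of exotoxin A, fell by 0.24 (edgeR adjusted p = 0.00642, and 0.0614 without E4F1 shRNA library 1). HBEGF, the diphtheria toxin receptor, had 32.2 ± 3.10 and 29.04 ± 1.46 CPM and did not pass (log2 −0.15, edgeR adjusted p = 0.190, and 0.0333 without control 2). FURIN, the protease that cleaves both toxins, also did not pass (log2 −0.11, edgeR adjusted p = 0.201). LRP1 was the only call in this list, where 14.4% of all genes were called lower and 14.4% higher.

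**Figure D4:**
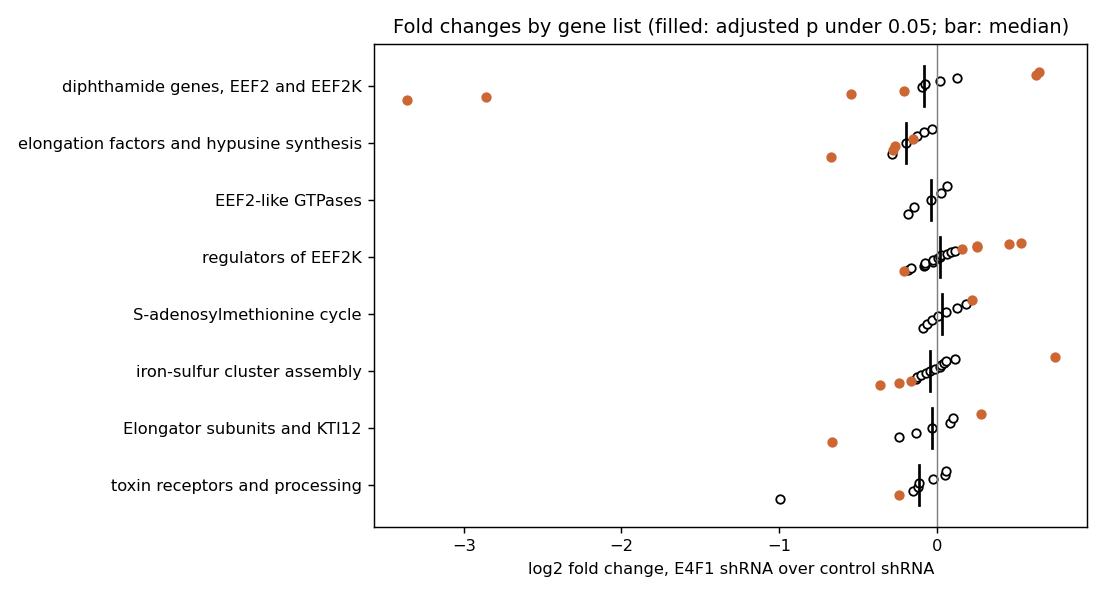
Log2 fold changes (horizontal axis) of the tested genes of each list, 1 point per gene, with the median as a bar and genes past adjusted p 0.05 filled. The medians lie between −0.20 and 0.034, and DPH5 and DPH5-DT are the 2 points below −2.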

How the data were processed

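RNA-seq libraries of U2OS cells, 3 with control shRNA and 3 with E4F1 shRNA, were grouped by their titles. The authors deposited unnormalised gene read counts, with a file for every library laid out as STAR writes them. The submitters' processing notes name bcl2fastq 2.20, STAR 2.5.1b and GRCh38, while their annotation release is not given in sources used here. Reverse-strand counts were used, since forward-strand totals were only 885046 to 977742 reads. Lines for reads in no gene (27.1% to 31.7% of each table) were left out.

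Symbols, coordinates (1-based) and exon lengths came from GENCODE 29, which matched 57881 of 58219 identifiers without version, with symbols updated from a current table of names (DPH5-DT is ENSG00000233184). Promoter sequences are from RefSeq (GRCh38.p14).

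Counts were filtered with filterByExpr, scaled by TMM and tested with edgeR 4.0.16 (R 4.3.3), quasi-likelihood F-test, two-sided, with Benjamini-Hochberg adjustment over 15765 genes and a threshold of 0.05. CPM values are TMM-scaled. For a single value, the smallest exact permutation p that 3 libraries per group allow is 0.1. Pools are called independent in the labels. Each p-value sets the difference between groups against the spread between pools, estimated with information shared across genes. That spread does not cover other hairpins or cell lines. The fit was checked on simulated data. Alternatives were DESeq2 1.42.0, limma-voom (limma 3.58.1), other scalings, filters and strand settings, a replicate block and leaving out each library.

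Members and gene lists were chosen with earlier results of these data known. Named beside the members were tested partners by position, list members past the threshold (at most 4 per list, by smallest adjusted p, and up to 2 others), and the 5 profiles nearest to DPH5. Some genes that these rules name are not reported here.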

Additional observations from a re-analysis of the deposited data

How the results depend on the processing

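Over 14 other settings per gene (fewer where a filter or test gave no value), the calls of DPH1, DPH5, DPH5-DT, DPH6 and EEF2K held in every one, and DPH3, DNAJC24 and EEF2 stayed short of the threshold in every one. Among 47 named genes, 28 kept direction and side of the threshold throughout. Genes changed in all numbered 3031 to 5370 with 1 library left out, and genes lower 1419 to 2537. Directions near 0 turned: DPH7 ranged from −0.0586 to 0.0966 with 1 library left out, DCDC1 from −0.214 to 0.222 (and −0.0287 ignoring strand), EFTUD2 from −0.0564 to 0.00374 and MAT2A from −0.0644 to 0.0222. With the replicate block 4865 genes changed and the same number of the 10 genes were called higher (2) and lower (4). Deviations of same-numbered libraries from their group means correlated at 0.00704, 0.0471 and 0.0477, so the numbers were not taken as pairs, and not every library correlated best with its own number. Depth limits DPH5-DT, with 5 to 9 reads per E4F1 shRNA library, and DPH6-DT, with at most 2 reads in any library, could not be tested.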
